A study of Sus scrofa with 4 samples.

Results

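The genes described here are effectors of the type I interferon response, the cell's antiviral programme, together with STAT2, through which the interferon receptor acts on them. They were chosen as a list of 9 gene symbols, and a probe was taken as a member when the RefSeq accession printed for it in the scanner output belonged to one of the 9 in the RefSeq gene table of Sscrofa11.1. This gave 22 probes of 8 genes (MX1, MX2, ISG15, OAS2, RSAD2, USP18, EIF2AK2 and STAT2) out of 43603 probes on the array, of which 6686 could be named, for 3020 genes, whereas OAS1 had no probe that could be named in this way. All 22 were well above background on all 4 arrays, so that none was lost to the filter on dim probes. STAT2 had 5 probes, MX1 5, OAS2 5, RSAD2 2, USP18 2 and the other 3 genes 1 each. Probes of the same gene measure the same mRNA and are not independent of each other.

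Type I interferons are secreted proteins that bind a receptor made of IFNAR1 and IFNAR2. The kinases JAK1 and TYK2 on that receptor phosphorylate STAT2, which enters the nucleus together with IRF9 and switches on a large set of genes. Many of these encode proteins that block a step of virus growth, and in the thymus a low level of the response is present without infection.

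Thymus RNA came from IL2RG KO pigs (genotype IL2RG+/- in the labels, described by the submitters as a monoallelic knockout made with TALENs, a pair of designed nucleases) and from wildtype (WT) pigs, all Minnesota miniature swine, with 2 arrays per genotype. IL2RG encodes the common gamma chain shared by several interleukin receptors. Per the methods the KO animals were made by nuclear transfer from edited cells, and only those with a rudimentary thymus could give thymus RNA, so that the KO samples represent an atrophied organ. The age of the animals on these arrays is not given in the sources used here. The labels number the 2 samples of a genotype as replicates, but do not say for WT that they are separate animals, so that p-values measure the spread between these samples, which may be technical. Slide 1 carried KO replicate 1 with WT replicate 2, and slide 2 the other pair.

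Each value below is a normalized log2 signal, the log2 brightness of a probe minus the 75th percentile of all probes on its array, so that 0 is the level of a fairly bright probe and a difference of 1 is 2-fold. Log2 fold changes are KO minus WT. A probe was called at an adjusted p under 0.05 in limma, a linear model that pools the spread over all probes, and a fold change of at least 2. Of the 31959 probes tested, 6713 were called higher in KO and 4169 lower, and scaling each array to its median in place of the 75th percentile gave 5811 and 6333 and moved the median log2 fold change of all probes from -0.06 to -0.32. The targeted gene checked the labels, as the brighter IL2RG probe read -3.15 and -3.29 on the KO arrays and -0.13 and 0.52 on the WT arrays. This drop, 10.7-fold, lay within the range of the thymocyte markers described below, from 2.78-fold for CD2 to 217-fold for RAG2. It therefore tells the 2 groups apart but does not by itself show the edit. Between 67.9% and 74.5% of the probes of an array were well above background. With 2 arrays per genotype a two-sided exact permutation test of 1 probe cannot go below p = 0.333.

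RSAD2, MX2, ISG15 and OAS2 rose in KO thymus, by 5.94-, 3.65-, 3.20- and 2.64-fold at their brightest probes. The other 4 genes were not called. At their brightest probes STAT2 and EIF2AK2 were 1.94- and 1.76-fold higher, and MX1 and USP18 were within 1.16-fold of WT. Other probes of MX1 were up to 1.20-fold higher, and the second probe of USP18 was 1.45-fold lower. By brightest probe, 4 of 8 genes were called higher, against 25.2% of the 2702 named genes tested, and 0 of 8 lower, against 12.6%. By probe, 6 of 22 were called higher, against 21.0% of all probes tested, and 0 lower, against 13.0%. At an unadjusted p under 0.05, 1 of the 22 probes was lower in KO, a probe of USP18, against 28.0% of all probes, and the methods' t-test called 0 probes lower. The median log2 fold change was 1.18 over the 8 genes, compared with -0.0015 over all named genes, and 0.88 over the 22 probes, compared with -0.06 over all probes tested.

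**Figure D1:**
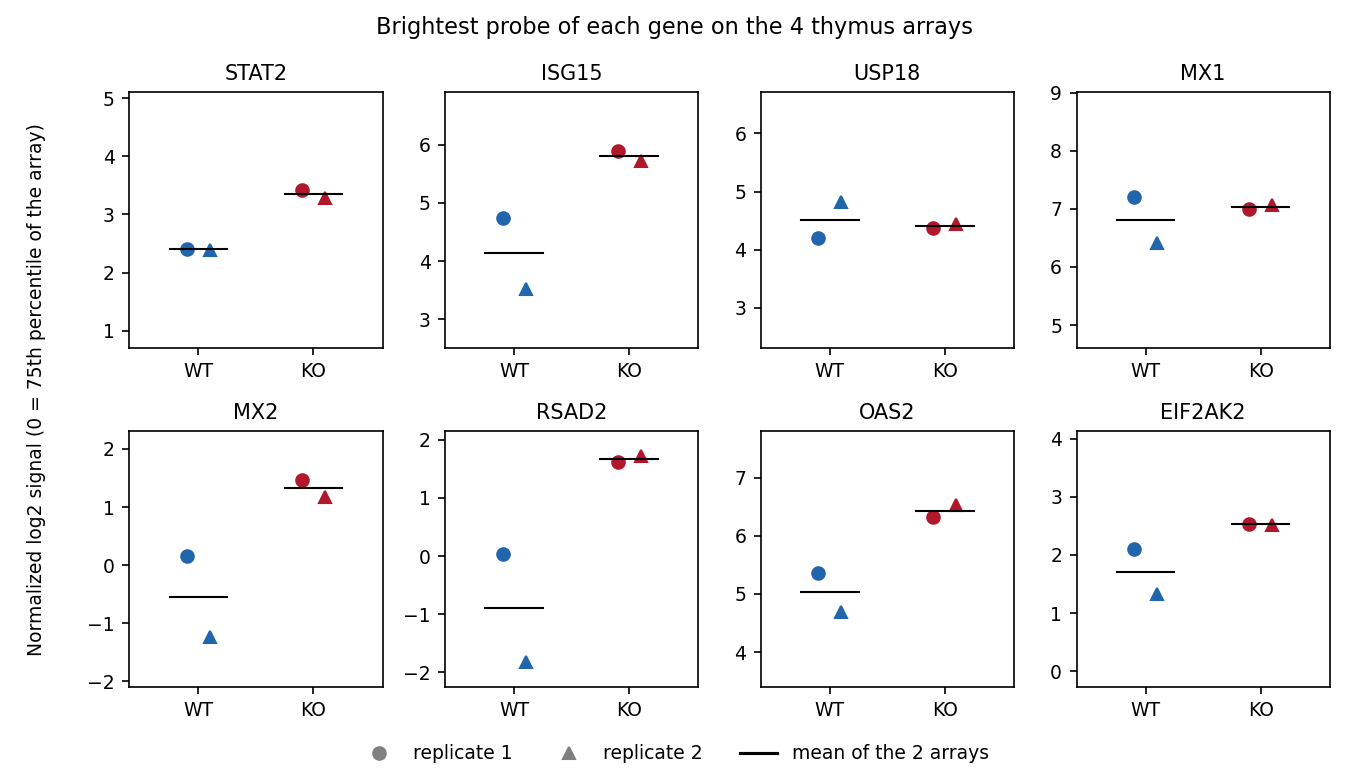
Normalized log2 signal (vertical axis) of the brightest probe of each of the 8 genes in WT and KO thymus, with 1 point per array, circles for replicate 1, triangles for replicate 2 and a line at the mean of the 2 arrays of a genotype. All panels span the same range of log2 units. The KO points lie close together in every panel, whereas WT replicate 1 lies above WT replicate 2 for all genes but USP18, and for RSAD2 by 1.85.

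STAT2 is the transcription factor that carries the signal of the type I interferon receptor. Its brightest probe (A_72_P088106) read 3.42 and 3.29 on the KO arrays and 2.41 and 2.39 on the WT arrays. Both KO arrays lay above both WT arrays, and the 2 arrays of each genotype were close. The means were 3.36 ± 0.10 (SD, n = 2) and 2.40 ± 0.01 (SD, n = 2), which put the log2 fold change at 0.96 (SE, its standard error, 0.16, limma adjusted p = 0.0109), just under the 2-fold required for a call. The other 4 probes of STAT2 gave log2 fold changes from 0.58 to 0.98, and 3 of these also had an adjusted p under 0.05 in limma. On adjusted p alone, 13 of the 22 probes and 5 of the 8 genes were higher in KO, against 25.3% of all probes and 29.9% of named genes tested. At all 5 probes of STAT2 the KO arrays lay above the WT arrays. This was so for 15 of the 22 probes and 6 of the 8 genes, compared with 37.7% of all probes and 42.6% of named genes tested. The reverse, KO arrays below WT arrays, was seen for 0 of the 8 genes at their brightest probe, compared with 41.2% of named genes. STAT2 passed 2-fold, at 1.10, when the arrays were quantile normalized and in the log2 values that the authors deposited.

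ISG15 is a small protein similar to ubiquitin that is attached to other proteins after interferon exposure and is also released from cells. Its only named probe read 5.90 and 5.73 on the KO arrays and 4.75 and 3.52 on the WT arrays. The KO arrays were 1.12-fold apart and the WT arrays 2.34-fold apart, and the genotypes did not overlap. The log2 fold change was 1.68 (SE 0.44, limma adjusted p = 0.0374). Within slide 1 KO was 5.19-fold above WT, and within slide 2 it was 1.97-fold above. The call held with a term for the slide (limma adjusted p = 0.0461).

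USP18 removes ISG15 from its targets and also binds IFNAR2, by which it damps the response to type I interferon. Its brightest probe (A_72_P077621) read 4.37 and 4.44 on the KO arrays and 4.20 and 4.83 on the WT arrays, so that both KO arrays lay between the WT arrays. The log2 fold change was -0.11, with a 95% interval from -0.80 to 0.59 (limma adjusted p = 0.760). That interval leaves out a rise of the size measured for ISG15, MX2 or RSAD2, whose log2 fold changes have wide intervals of their own. The direction of this probe turned with the scaling, as it was 0.11 after quantile normalization and in the deposited log2 values. The second probe (A_72_P417087) read -1.23 and -1.19 on the KO arrays and -0.86 and -0.48 on the WT arrays. Its KO arrays lay below both WT arrays, which was so for 41.0% of all probes tested, and KO minus WT was -0.54 (SE 0.20, limma adjusted p = 0.0825). USP18 was the one gene of the 8 that was higher in WT replicate 2 than in WT replicate 1 at its brightest probe.

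MX1 and MX2 are GTPases of the dynamin family that trap viral components, MX1 acting on influenza viruses among others. The brightest MX1 probe (A_72_P440896) read 7.00 and 7.06 on the KO arrays and 7.21 and 6.41 on the WT arrays. WT replicate 1 was the highest of the 4 arrays and WT replicate 2 the lowest, and the genotypes overlapped at all 5 MX1 probes. The log2 fold changes of the 5 probes ran from 0.17 to 0.26 and their adjusted p in limma from 0.436 to 0.658. The 95% interval of the brightest probe ran from -0.61 to 1.05, so that a 2-fold rise was not excluded by these arrays. Its direction turned, to -0.040, when the arrays were scaled to the median. MX2, by contrast, read 1.46 and 1.18 on the KO arrays and 0.15 and -1.24 on the WT arrays, with no overlap. Its log2 fold change was 1.87 (SE 0.50, limma adjusted p = 0.0393), although the WT arrays were 2.63-fold apart. With the slide as a block the adjusted p of MX2 was 0.0519 in limma, which ended the call. Within slide 1 KO was 6.52-fold above WT for MX2, and within slide 2 it was 2.04-fold above.

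RSAD2 encodes viperin, an enzyme that makes a nucleotide analogue which stops viral RNA polymerases. Its brighter probe (A_72_P303019) read 1.61 and 1.73 on the KO arrays and 0.03 and -1.83 on the WT arrays. The second probe (A_72_P443124) read -0.86 and -0.72 on the KO arrays and -2.39 and -4.20 on the WT arrays. At both probes the KO arrays nearly coincided and WT replicate 2 lay far below WT replicate 1, by 3.62-fold at the brighter probe. The log2 fold changes were 2.57 (SE 0.64, limma adjusted p = 0.0327) and 2.50 (SE 0.63, limma adjusted p = 0.0333). RSAD2 had the largest log2 fold change of the 8 genes and also the widest 95% interval of the 22 probes, from 0.85 to 4.29. On slide 1 KO was 10.8-fold above WT, and on slide 2 it was 3.25-fold above.

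OAS2 makes short chains of adenosine when it meets double-stranded RNA. Its brightest probe (A_72_P303179) read 6.32 and 6.52 on the KO arrays and 5.37 and 4.68 on the WT arrays. The log2 fold change was 1.40 (SE 0.28, limma adjusted p = 0.0187). A second probe (A_72_P444275) was called as well, with a log2 fold change of 1.32 (SE 0.19, limma adjusted p = 0.00822). The remaining 3 probes had log2 fold changes of 0.91, 0.99 and 0.99, each with an adjusted p under 0.05 in limma and each just short of 2-fold. All 5 probes had both KO arrays above both WT arrays. Within slide 2, where the difference was smaller at 4 of the 5 probes, KO was 1.66- to 2.23-fold above WT.

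EIF2AK2 encodes PKR, a kinase that senses double-stranded RNA and halts translation. Its only named probe read 2.53 and 2.52 on the KO arrays and 2.09 and 1.33 on the WT arrays. Both KO arrays lay above both WT arrays and differed from each other by 1.01-fold, whereas the WT arrays were 1.70-fold apart. The log2 fold change was 0.81 (SE 0.30, limma adjusted p = 0.0837) and missed the threshold. It was 1.19 when WT replicate 1 was left out and 0.43 when WT replicate 2 was.

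**Figure D2:**
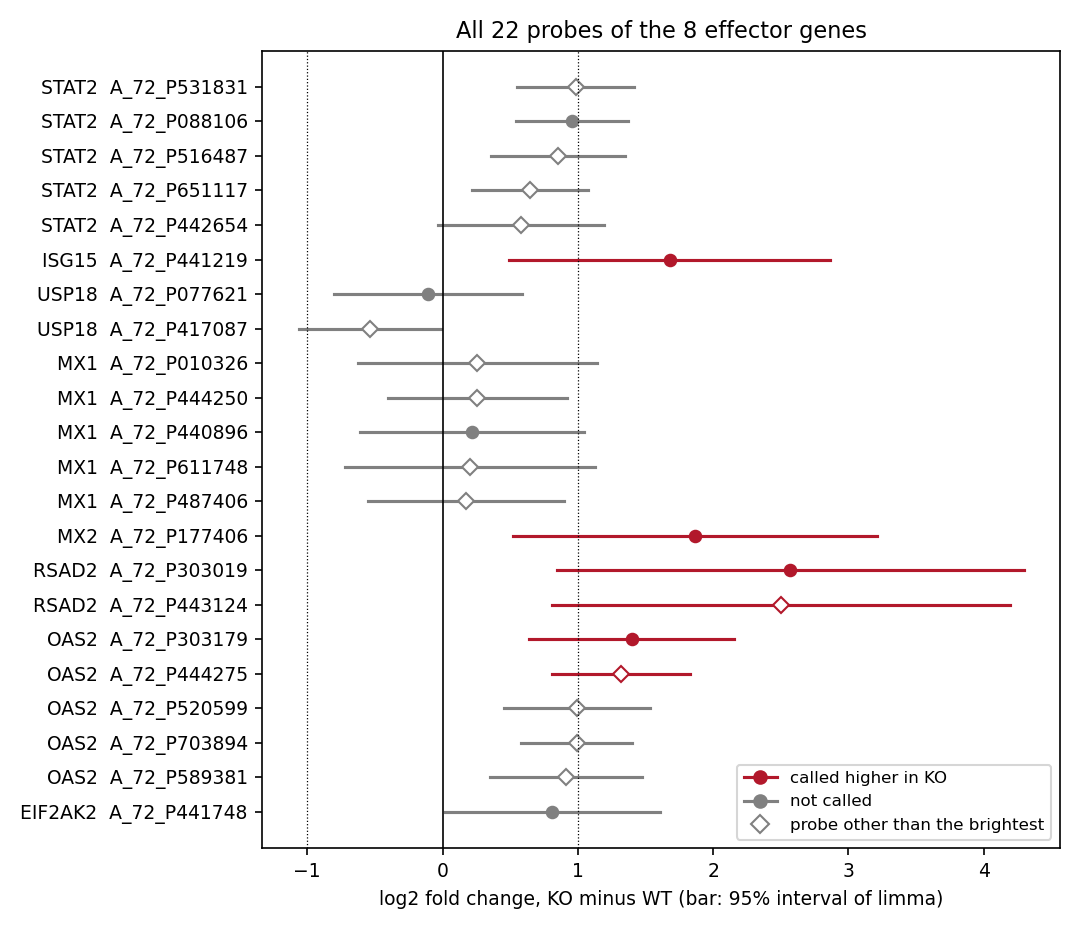
Log2 fold change of KO against WT (horizontal axis) for all 22 probes of the 8 genes, with the 95% interval of limma as a bar, circles for the brightest probe of a gene, diamonds for its other probes and red for probes called higher in KO. Dotted lines mark 2-fold. The 6 called probes belong to ISG15, MX2, RSAD2 and OAS2, the probes of STAT2 lie at or under the 2-fold line, and those of MX1 and USP18 lie near 0 or below it.

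The WT arrays disagreed on these genes more than the KO arrays did. The median distance between the 2 WT arrays was 0.59 over the 22 probes, compared with 0.30 over all probes tested. Between the 2 KO arrays it was 0.12, compared with 0.16. A distance of 2-fold or more between WT arrays was seen at 4 of the 22 probes, those of ISG15, MX2 and RSAD2, and between KO arrays at 0, with 8.78% and 2.34% over all probes tested. WT replicate 1 was above WT replicate 2 at 17 of the 22 probes, against 49.7% of all probes, and the 5 exceptions were 3 probes of STAT2 and both of USP18. The distance between the WT arrays at the brightest probe was 0.02 for STAT2, 0.68 for OAS2, 0.76 for EIF2AK2, 0.80 for MX1, 1.23 for ISG15, 1.39 for MX2 and 1.85 for RSAD2. At the other probes it ran from 0.12 to 0.51 for STAT2 and from 0.07 to 0.42 for OAS2, so that the order of these genes depends on the probe. These are values of single arrays, with no test of the difference between WT replicates. The order of the WT arrays was not particular to these genes. Cell markers called higher in KO, described below, also had WT replicate 1 above WT replicate 2, except CD163, C1QC and KLRK1. For LUM, DCN, KRT8 and VWF the distance was 1.82, 1.28, 0.88 and 0.83.

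**Figure D3:**
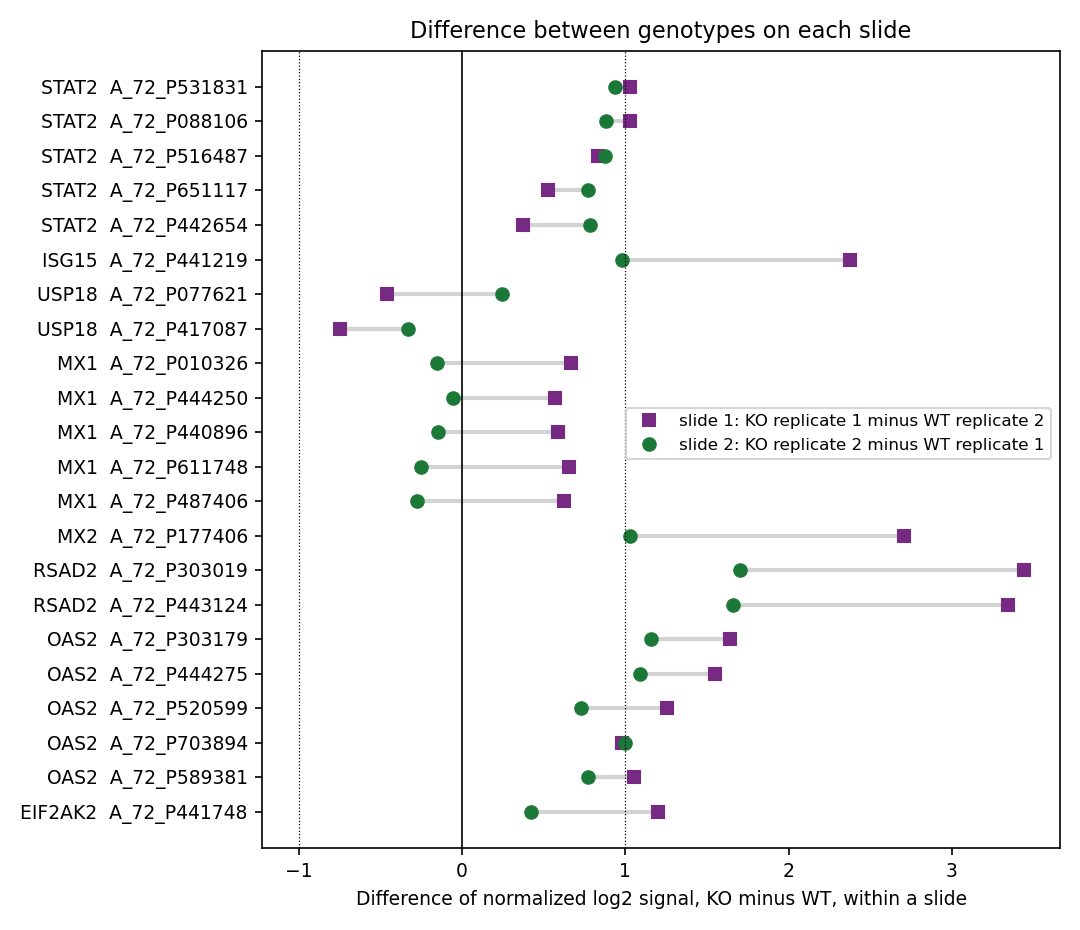
Difference of normalized log2 signal between KO and WT (horizontal axis) within slide 1 (squares, KO replicate 1 minus WT replicate 2) and within slide 2 (circles, KO replicate 2 minus WT replicate 1) for the 22 probes. The squares lie far to the right of the circles for RSAD2, MX2 and ISG15, close to them for STAT2, and on the other side of 0 from them for all 5 probes of MX1.

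Both slides held both genotypes, so that the 2 WT arrays and the 2 KO arrays lay across the same pair of slides. WT replicate 1 (slide 2) minus WT replicate 2 (slide 1) was 1.85 for RSAD2, 1.39 for MX2 and 1.23 for ISG15. KO replicate 1 (slide 1) minus KO replicate 2 (slide 2) was -0.12, 0.28 and 0.17 for these genes, and over the 22 probes the KO arrays were never more than 0.30 apart. On slide 1, 20 of the 22 probes were higher in KO, compared with 46.2% of all probes tested, and on slide 2, 16 of 22, compared with 48.7%. The probes of RSAD2, MX2, OAS2, ISG15, STAT2 and EIF2AK2 were higher in KO on both slides. MX1 was higher in KO on slide 1 at all 5 probes, by 1.48- to 1.59-fold, and lower on slide 2 at all 5, by 1.04- to 1.21-fold. Leaving out WT replicate 1 gave log2 fold changes of 3.50 for RSAD2, 2.56 for MX2, 2.29 for ISG15 and 1.74 for OAS2. Leaving out WT replicate 2 gave 1.64, 1.17, 1.07 and 1.06 for these genes. With 1 WT array left, the spread of a probe is taken from the KO arrays, which lay close together at these genes. Such fits cannot show whether a call withstands the distance between the WT arrays. Without KO replicate 1 or without KO replicate 2 none of the 4 genes was called, with adjusted p values in limma from 0.0733 to 0.135, while the log2 fold changes stayed between 1.30 and 2.63. In these fits 1 KO array is assumed to vary like the WT arrays. Of the 4 genes, OAS2 alone was called when dim probes were kept in the test, with adjusted p values in limma of 0.0599 for ISG15, 0.0620 for MX2 and 0.0521 for RSAD2, and the methods' t-test on each probe alone called 0 of the 8 genes at an unadjusted p under 0.05.

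The other genes of the pathway formed a list of 49 symbols, of which 13 had a named probe and 12 could be tested. By brightest probe, 4 were called higher in KO, 0 were called lower and 8 were not called. Among those called, IFNE entered the test only through its KO arrays, and 3 genes were called when all 4 arrays had to be well above background. At an unadjusted p under 0.05, 0 of the 12 were lower in KO, against 28.2% of named genes, and the methods' t-test called 0 lower. The background over named genes was again 25.2% higher and 12.6% lower. The median log2 fold change was 1.28 over the 6 effectors and 0.06 over the 6 genes of ligands, receptors and signalling.

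Among the effectors, OASL, a relative of the OAS enzymes, read 3.87 and 3.75 on the KO arrays and 1.90 and 0.21 on the WT arrays. Its log2 fold change was 2.76 (SE 0.59, limma adjusted p = 0.0217). IFIT3, a protein of a family that binds foreign RNA, had a log2 fold change of 2.23 (SE 0.44, limma adjusted p = 0.0174). As for RSAD2, WT replicate 2 was well below WT replicate 1 for both, by 3.22-fold for OASL and 2.33-fold for IFIT3. Without KO replicate 1 or KO replicate 2 both calls were lost, at limma adjusted p values of 0.0763 and 0.0727 for OASL and 0.0661 and 0.0708 for IFIT3. BST2, which tethers budding virus to the cell surface, had a log2 fold change of 1.19 (SE 0.31, limma adjusted p = 0.0371). That call was lost without KO replicate 1, KO replicate 2 or WT replicate 2, at limma adjusted p values of 0.0555, 0.173 and 0.0837. IFIT1 had both KO arrays above both WT arrays, but its log2 fold change of 1.37 was not called (SE 0.47, limma adjusted p = 0.0720). IFI44 and TRIM21 had the smallest differences, with log2 fold changes of 0.01 and -0.06 and 95% intervals from -0.47 to 0.49 and from -0.49 to 0.36.

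**Figure D4:**
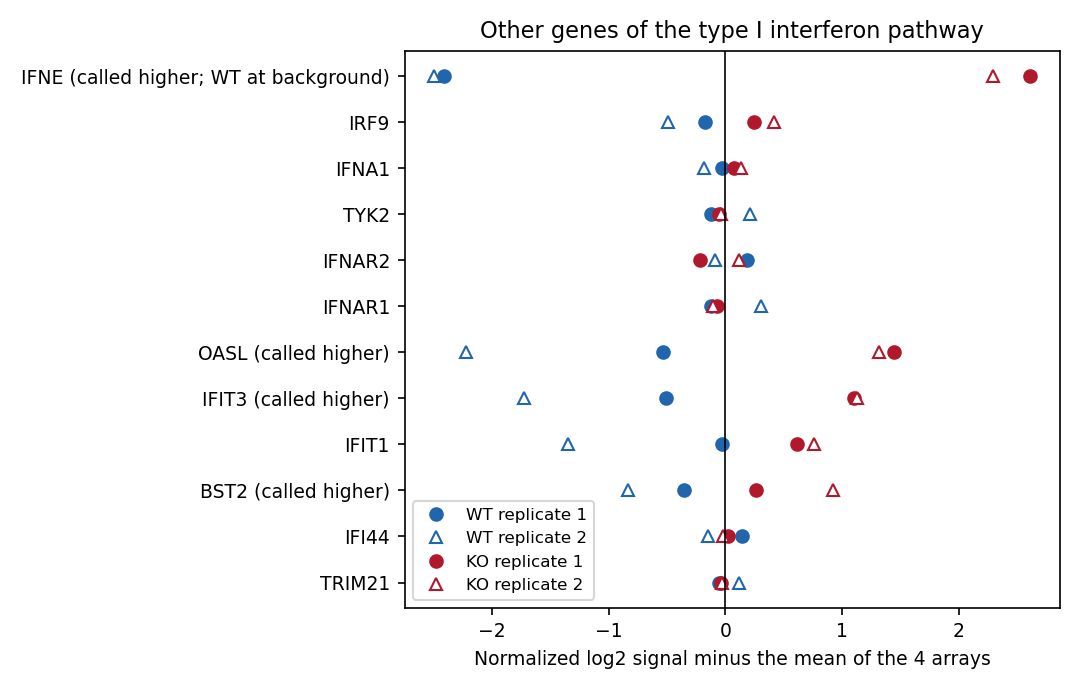
Normalized log2 signal of 12 other pathway genes at their brightest probe, each minus the mean of its 4 arrays (horizontal axis), in KO (red) and WT (blue), with filled circles for replicate 1 and open triangles for replicate 2. The WT arrays of OASL, IFIT3 and IFIT1 are spread widely and the KO arrays of these genes lie close together, whereas the points of TYK2, IFNAR1, IFNAR2, IFI44 and TRIM21 overlap near 0.

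Of the ligands on the list, IFNB1, the interferon beta gene, was not well above background on any array. IFN-DELTA-9, an interferon gene by its name, was not on the list and is described below. The probe of IFNA1, an interferon alpha gene, was near -5 in both genotypes, with a log2 fold change of 0.21 and a 95% interval from -0.21 to 0.64. Interferon alpha genes are many and alike in pigs, so that this probe may not separate them. IFNE, interferon epsilon, was -2.73 and -3.05 in KO and was not well above background on either WT array. It was at least 7.61-fold higher in KO. Its adjusted p in limma, 0.00205, rests on WT values at background and on a probe that could enter the test only by being high in KO, and gives no support of its own. The bound sets the KO mean against the lowest signal of probes well above background on the WT arrays. The receptor genes IFNAR1 and IFNAR2 and the kinase gene TYK2 were not called, with log2 fold changes of -0.18, -0.10 and -0.09 at the brightest probes and 95% intervals that lay between -0.73 and 0.46. The IFNAR2 probe read 8.26 and 8.60 on the KO arrays and 8.66 and 8.39 on the WT arrays. That was brighter than any member probe, and whether the probe reads IFNAR2 alone was not tested. IRF9, the partner of STAT2, read 3.15 and 3.32 on the KO arrays and 2.73 and 2.41 on the WT arrays. Its log2 fold change of 0.66 (SE 0.19, limma adjusted p = 0.0479) was under 2-fold.

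In whole thymus RNA, fewer cells of a type and less RNA per cell cannot be told apart. Of 16 thymocyte markers 13 could be tested, of which 13 were lower in KO, and their summed linear signal, in units of the 75th percentile of the array, was 30.9 to 32.3 in KO and 197 to 273 in WT. Of 12 macrophage markers 8 were tested and all 8 were higher, with sums of 229 to 291 in KO and 50.4 to 59.2 in WT. The 3 endothelial and the 3 fibroblast markers tested were all higher in KO, with sums of 16.8 to 18.3 and 115 to 175, compared with 3.10 to 5.33 and 27.2 to 63.0 in WT. Of the thymic epithelial markers KRT8 was higher in KO and EPCAM was not called, and the sums were 205 to 213 in KO and 42.2 to 63.5 in WT. All 3 B cell markers tested were lower. Of the NK cell markers, KLRK1 was higher in KO and NCR1 was too dim to test. No named marker of these lists was below background on all 4 arrays. Their part in the difference of the interferon effectors was not tested.

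The WT arrays also differed in cell markers. The neutrophil markers S100A8, S100A9 and S100A12 were 5.11, 3.53 and 5.07 in WT replicate 1 and 1.14, -0.06 and 1.65 in WT replicate 2, and their summed signal was 79.7 and 6.30. In KO that sum was 1.29 and 5.10. The thymocyte sum was 197 in WT replicate 1 and 273 in WT replicate 2, and the fibroblast sum was 63.0 and 27.2. WT replicate 1 was the WT array with more neutrophil signal and with more signal of RSAD2, MX2 and ISG15. It also had larger endothelial, thymic epithelial and macrophage sums, 5.33, 63.5 and 59.2 against 3.10, 42.2 and 50.4. These sums and that of fibroblasts were higher still in KO. The neutrophil sum was lower in KO than on either WT array. The NK cell sum was smaller in WT replicate 1, 0.60 against 1.07. The part of any of these cell types in the effectors was not tested. The dendritic cell and plasmacytoid dendritic cell lists had 1 tested marker each. XCR1, a marker of dendritic cells, was higher in KO by 1.13 on the log2 scale (SE 0.20, limma adjusted p = 0.0141), and its part in the difference of the effectors was not tested. CD4, the marker tested for plasmacytoid dendritic cells, was lower in KO and is also a thymocyte marker, so that the arrays gave no usable level for plasmacytoid dendritic cells, a main source of interferon alpha.

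The mean profile of the 8 genes, each centred on its own mean, read 0.60 and 0.58 on the KO arrays and -0.21 and -0.97 on the WT arrays replicates 1 and 2. The 5 other named genes nearest to it over the 4 arrays, by the root mean square difference of centred values, were SAL1, GLUL, SLC6A8, GPT2 and IFN-DELTA-9, at 0.041, 0.060, 0.061, 0.068 and 0.080. All 5 had log2 fold changes between 1.14 and 1.26 and were called higher in KO. Their direction and size follow from how they were picked, since the profile itself is higher in KO. IFN-DELTA-9, which was not on the list of ligands, was well above background on all 4 arrays. It read -2.18 and -2.30 on the KO arrays and -3.10 and -3.67 on the WT arrays. Its log2 fold change of 1.14 does not enter the median of the ligands, receptors and signalling genes. The likeness rests on 4 arrays and is given as a description.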

How the data were processed

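Thymus RNA of 2 KO and 2 WT samples was hybridised to Agilent pig arrays in 1 colour. The authors deposited the intensity of each spot from Agilent Feature Extraction (version 11.0.1.1 per the file headers), which is corrected for background within an array but not scaled between arrays. They also deposited log2 values of 27974 probes, which have the same distribution on each array and served as an alternative.

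Control spots and outlier spots were removed, the spots of a probe averaged as log2, and each array scaled to its 75th percentile. A probe entered the test if both arrays of KO or both of WT were well above background (31959 probes). These were fitted unpaired with lmFit and eBayes of limma 3.58.1 (R 4.3.3), and p-values were adjusted over all of them by Benjamini-Hochberg. Plots were drawn with matplotlib 3.10.9 in Python 3.11.15. No spot was saturated. The number of arrays limits the precision. The procedure was tested on simulated data.

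Probes were named by accession through the RefSeq table of Sscrofa11.1. Its coordinates were not used, since the build behind the arrays is not given in the sources used here. A gene is represented by its brightest tested probe. All member probes are reported. A gene planned for the list of other pathway genes is not reported here and was left out of its counts. Of the other pathway genes, those called and the 2 with the smallest difference were named by rule, and the ligands, receptors, IRF9, TYK2 and IFIT1 were named for their role after their values were seen. The members, gene lists and tests were chosen with earlier results of these data known. A planned search of promoters for interferon response elements was not run, since promoter sequences were not used here. Deviations from the group means correlated at -0.29 over probes between samples with the same replicate number, so the numbers were not taken to pair the samples. The correlation between arrays of the same slide, 0.29, is the same value with its sign turned, since each genotype has 2 arrays.

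Alternatives were median scaling, quantile normalization, normexp (offset 50), the deposited log2 values, other filters on dim probes (none, or all 4 arrays above background), a block for slide or for replicate number, an intensity trend, the methods' t-test, the median over the probes of a gene, and leaving out each array.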

Additional observations from a re-analysis of the deposited data

How the results depend on the processing

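Of the 22 probes, 6 were called higher in KO, and of the 8 genes, 4. These counts were 2 and 1 without a filter on dim probes, where BH adjustment ran over all probes, with adjusted p values in limma of 0.0599 for ISG15, 0.0620 for MX2 and 0.0521 for RSAD2. The methods' t-test called 1 probe and 0 genes at an unadjusted p under 0.05, and 0 and 0 with Benjamini-Hochberg adjustment or the Bonferroni correction. Of the other pathway genes, 4 were called higher, and the methods' t-test called 1, 1 and 0 of them under the same criteria. The number of other pathway genes called was 3 with scaling to the median, 3 without a filter on dim probes and 5 with an intensity trend. With each array left out in turn the counts ran from 0 to 11 probes, 0 to 5 genes and 1 to 5 other pathway genes, and the lowest counts were those without a KO array. In the fits with an array left out, the genotype with 1 array is assumed to vary like the other genotype, which limits these counts. With quantile normalization and in the deposited log2 values, 9 probes and 5 genes were called, STAT2 being the added gene. With the replicate number as a block 6 probes, 4 genes and 3 other pathway genes were called, BST2 (adjusted p 0.0670 in limma) not among them, and with the slide as a block, which is the same as a crossed pairing of the replicates chosen after the data were seen, 5 and 3, MX2 being lost. No alternative called a member lower in KO. The log2 fold change of MX1 reversed to -0.040 with scaling to the median, and that of USP18 to 0.11 with quantile normalization and to 0.11 in the deposited values. With each array left out in turn, MX1 ran from -0.18 (without WT replicate 2) to 0.62 (without WT replicate 1) and USP18 from -0.42 (without WT replicate 1) to 0.21 (without WT replicate 2). Without a filter on dim probes the SE rose as well, from 0.44 to 0.46 for ISG15, 0.50 to 0.52 for MX2 and 0.64 to 0.66 for RSAD2. Why the counts and directions changed between alternatives was not tested. The log2 fold changes of RSAD2, MX2, ISG15 and OAS2 were positive under all alternatives, from 1.64 to 3.50, 1.17 to 2.56, 1.07 to 2.29 and 1.06 to 1.74.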
